A study of Mus musculus with 24 samples.

Results

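Base excision repair removes a damaged base in a fixed order of steps, and the 10 genes described here encode proteins that act after a DNA glycosylase has cut the base out, or that clean the nucleotide pool. They are *Apex1*, *Apex2*, *Polb*, *Xrcc1*, *Lig1*, *Lig3*, *Parp1*, *Parp2*, *Fen1* and *Nudt1*, taken by name from the array annotation. A gene was included where a probe set carried its symbol and no other. Each of the 10 was represented by 1 probe set, out of 19938 genes with such a probe set and 35556 probe sets in all. The livers came from male *Ogg1*-/- and wild-type (WT) mice of the C57BL6 strain, which lack or carry the glycosylase that starts the repair of 8-oxoguanine. The 4 groups were *Ogg1*-/- on a high-fat diet (HFD), WT on the HFD, *Ogg1*-/- on chow and WT on chow, with 6 livers in each, 1 array for each of 24 mice and 10 weeks on the diet. The labels give an age of 10 weeks for the mice, while the methods give a later age at the start of feeding. The methods describe a line backcrossed repeatedly to C57BL/6J and kept by matings of heterozygous mice, so the allele was absent throughout the animal and not in hepatocytes alone.

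Once a glycosylase has released an oxidised or deaminated base, the empty sugar is cut by an apurinic/apyrimidinic endonuclease, of which APEX1 is the main one and APEX2 a relative better known for its 3′ processing activity. The short-patch route then inserts a single nucleotide with DNA polymerase beta and seals the nick with DNA ligase III, which is held on the scaffold protein XRCC1. The long-patch route displaces a flap that the nuclease FEN1 removes before DNA ligase I seals the strand. PARP1 and PARP2 bind the intermediate strand breaks, make poly(ADP-ribose) and attract XRCC1. NUDT1, also named MTH1, acts before all of these: it hydrolyses oxidised purine nucleotides so that they are not built into DNA. The liver is exposed to oxidants from fat metabolism, and the question addressed here is whether the later steps of the pathway differed in mRNA level between livers with and without the first enzyme, and between diets.

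Promoter windows of RefSeq (GRCm38.p6, 250 bases before to 50 after an annotated start) were held for 8 of the 10 members, 13 windows in all. They are shown because the hexamer CACGTG, the palindromic E-box that several basic helix-loop-helix factors bind, was noticed in them when they were read. It was present in a window of 6 of these 8 genes (*Apex1*, *Lig1*, *Lig3*, *Parp1*, *Parp2* and *Fen1*) and in 6 of the 13 windows, against 8.09% of 27025 genes and 7.15% of 32851 windows in the whole RefSeq set. *Xrcc1* and *Nudt1* had no copy in their windows. *Apex1* had 3 copies in 1 window, and 0.088% of all windows had 3 or more. Because the motif was picked after the sequences were seen, this is a description without a test, and no binding was measured. The windows of *Parp2* (chr14:50807666-50807965, plus strand), *Parp1* (chr1:180568641-180568940, plus strand), *Lig3* (chr11:82780859-82781158, plus strand) and *Apex1* (chr14:50924699-50924998, plus strand) follow, 5′ to 3′, with CACGTG in capitals. The first 3 belong to members with lower means in *Ogg1*-/- livers on both diets, and the last to the member with the most copies of the motif. *Lig1* and *Fen1* also carried the motif, and their means were higher in *Ogg1*-/- livers. The differences were 0.12 and 0.03 on the HFD and 0.09 and 0.0032 on chow, none of them called.
Parp2: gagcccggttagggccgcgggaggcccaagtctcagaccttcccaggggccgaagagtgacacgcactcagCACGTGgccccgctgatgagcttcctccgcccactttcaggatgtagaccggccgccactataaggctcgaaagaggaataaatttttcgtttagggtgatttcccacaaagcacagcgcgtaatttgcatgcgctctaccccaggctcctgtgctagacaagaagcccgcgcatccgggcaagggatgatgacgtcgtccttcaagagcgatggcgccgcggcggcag
Parp1: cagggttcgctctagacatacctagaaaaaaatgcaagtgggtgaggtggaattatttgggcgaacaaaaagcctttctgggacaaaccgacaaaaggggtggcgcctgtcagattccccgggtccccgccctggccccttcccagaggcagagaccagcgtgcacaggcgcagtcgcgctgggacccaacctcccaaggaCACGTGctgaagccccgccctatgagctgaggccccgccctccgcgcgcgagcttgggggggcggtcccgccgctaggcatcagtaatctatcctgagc
Lig3: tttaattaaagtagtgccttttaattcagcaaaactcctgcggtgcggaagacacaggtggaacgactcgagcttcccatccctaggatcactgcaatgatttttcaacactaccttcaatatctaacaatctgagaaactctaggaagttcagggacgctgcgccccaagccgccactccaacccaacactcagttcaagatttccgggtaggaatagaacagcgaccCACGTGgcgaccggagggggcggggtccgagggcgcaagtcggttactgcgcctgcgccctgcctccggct
Apex1: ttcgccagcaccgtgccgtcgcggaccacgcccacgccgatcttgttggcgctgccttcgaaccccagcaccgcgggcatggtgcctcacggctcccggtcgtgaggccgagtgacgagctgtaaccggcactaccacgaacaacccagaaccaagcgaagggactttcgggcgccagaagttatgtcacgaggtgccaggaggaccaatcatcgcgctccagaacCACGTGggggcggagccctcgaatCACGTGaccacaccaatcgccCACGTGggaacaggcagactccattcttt

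The values are log2 signals on the arrays, and differences are given on the same log2 scale. A level can be set against the same gene in other livers but not against another gene, because probes differ in brightness. All 8 measured hepatocyte markers averaged at least 11.8 in every group, against a median of 5.93 over all probe sets, so the defining markers of the labelled tissue were present. *Ogg1* itself was measured at 5.70, 5.87 and 6.03 (lowest, median and highest) in *Ogg1*-/- livers on the HFD, against 6.34, 6.46 and 6.57 in WT livers on the HFD. On chow it was at 5.85, 5.94 and 5.997 in *Ogg1*-/- livers, against 6.26, 6.51 and 6.55 in WT livers. The genotypes did not overlap on either diet, with differences of -0.59 ± 0.07 on the HFD and -0.54 ± 0.07 on chow (± SE, limma, adjusted p = 2.9e-05 and 3.2e-05). As the sources used here do not place the probes against the deletion, a remaining signal is not a measure of how complete the loss was. Replicate 1 of *Ogg1*-/- on chow stood apart from the other chow livers and is treated with the results that it touches. It accounted for 59.2% of the squared scores along the leading axis of variation among chow livers. No member lies on the chromosome that carries *Ogg1*.

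On the HFD, 2 of the 10 members differed between *Ogg1*-/- and WT livers. *Parp2* was 1.53-fold lower in *Ogg1*-/- livers and *Apex2* was 1.19-fold higher. A difference was called at an adjusted p under 0.05, by limma with Benjamini-Hochberg adjustment over all probe sets. Of all probe sets, 19.8% were called in this comparison, 10.3% as higher and 9.55% as lower, so the share among the members was that of the array as a whole. Only *Parp2* also passed a fold of 1.5, which 5.89% of probe sets did. The groups did not overlap for *Parp2* and *Xrcc1*, and 12.1% of all probe sets had no overlap. At an unadjusted p under 0.05, 5 members differed, the others being *Xrcc1*, *Lig3* and *Nudt1*, while 31.5% of all probe sets passed at that level. The median difference over the members was 0.01, against 0.02 over all probe sets. The methods' t-test, with Benjamini-Hochberg adjustment, called 4 members on this diet and 22.8% of all probe sets. These 4 were *Parp2*, *Parp1*, *Lig3* and *Xrcc1*, without *Apex2*.

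**Figure D1:**
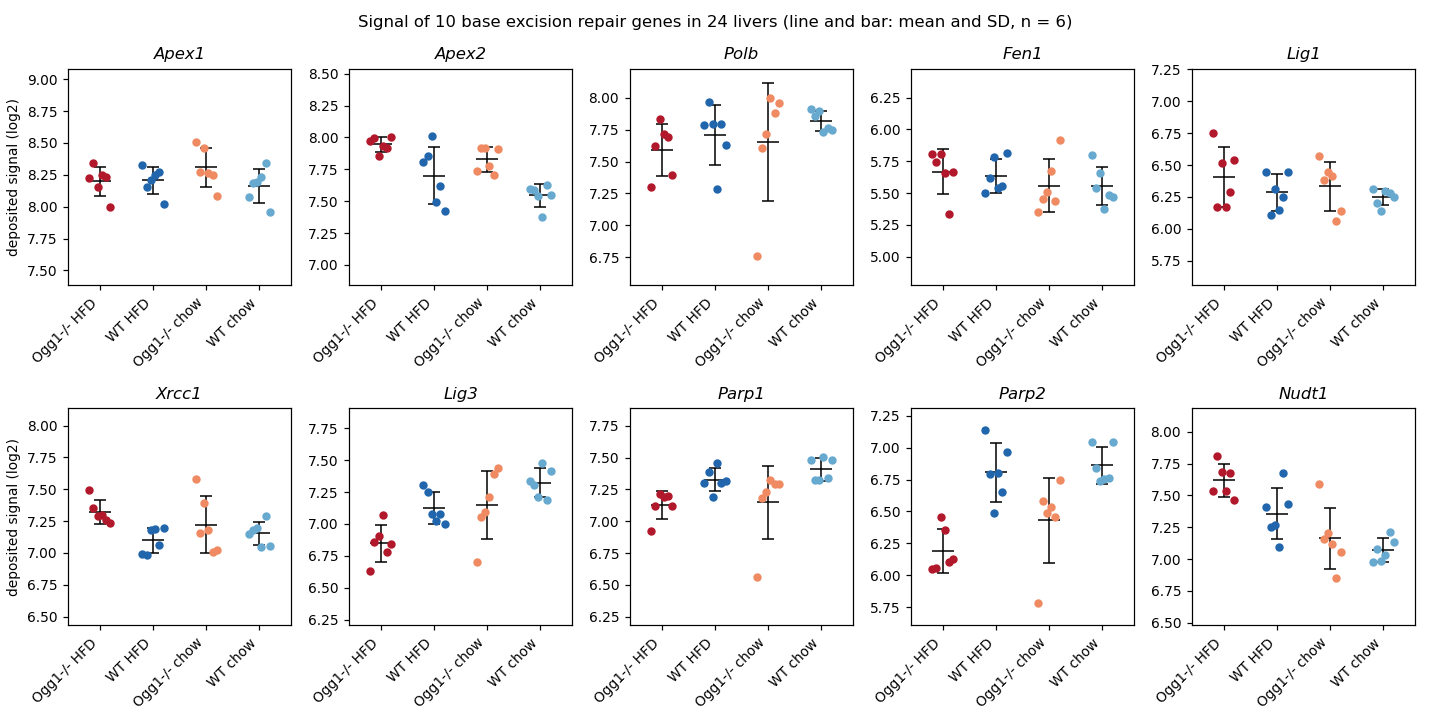
Deposited log2 signal (vertical axis, a span of equal size in each panel) of the 10 members in the 24 livers, with points for single livers and a line and bar for the mean and SD of 6 livers. *Parp2* in *Ogg1*-/- livers on the HFD lies between 6.05 and 6.46, under all WT livers on that diet, which start at 6.49, and replicate 1 of *Ogg1*-/- on chow is the lowest point for *Polb*, *Parp1* and *Parp2*.

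*Parp2*, which encodes the smaller of the break-activated ADP-ribose polymerases, was lower in *Ogg1*-/- livers. On the HFD its signal was 6.05, 6.11 and 6.46 (lowest, median and highest) in *Ogg1*-/- livers, against 6.49, 6.80 and 7.14 in WT livers. Every *Ogg1*-/- liver lay below every WT liver, although the highest of the *Ogg1*-/- and the lowest of the WT livers nearly met. The difference was -0.61 ± 0.13 (SE; 95% confidence interval -0.88 to -0.35), with an adjusted p of 0.0036 by limma. On chow, the signal was 5.78, 6.51 and 6.74 in *Ogg1*-/- livers, against 6.74, 6.80 and 7.04 in WT livers. These ranges met at their ends, with 1 *Ogg1*-/- liver far below the rest. The chow difference was -0.43 (interval -0.70 to -0.17) and did not pass, with an adjusted p of 0.13 by limma. Without the outlying liver, replicate 1 of *Ogg1*-/- on chow, it was -0.30 (adjusted p = 0.27 by limma), and without replicate 6 of *Ogg1*-/- on chow it was -0.50 and passed (adjusted p = 0.044 by limma). The differences on the 2 diets were themselves not distinguished: the interaction was -0.18, with an interval of -0.56 to 0.20 (adjusted p = 0.88 by limma).

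The HFD difference in *Parp2* kept its call without any single array, with adjusted p-values between 0.00013 and 0.012 by limma. It moved together with other features of these livers. Scores on the axis of variation taken from the chow livers were 18.5 to 54.8 in *Ogg1*-/- livers on the HFD and -20.7 to 10.4 in WT livers on the HFD, without overlap. With this score as a covariate the *Parp2* difference was -0.32 (adjusted p = 0.074 by limma). As the scores set the genotypes apart on the HFD, such a fit cannot cleanly separate the axis from genotype. For the marker counts that follow, 9.55% of all probe sets were called as lower and 10.3% as higher between genotypes on the HFD. Of 10 endothelial markers, 6 were lower in *Ogg1*-/- livers on the HFD and 0 higher (*Tek* with -0.73 and *Kdr* with -0.60 among them). The summed linear signal of the 10 was 5783 to 6259 in *Ogg1*-/- livers, against 7064 to 7698 in WT livers. Of 10 stellate cell markers, 4 were lower and 0 higher (*Lrat* with -0.96 and *Dcn* with -0.85 among them), with sums of 3727 to 5921 in *Ogg1*-/- livers, against 5715 to 7925 in WT livers. Called or not, 4 of the 10 stellate differences were positive, and their median was -0.25. Such sums weigh bright markers most, and *Dcn* was the brightest, with means of 11.4 in *Ogg1*-/- and 12.3 in WT livers on the HFD. None of the 8 hepatocyte markers was called, with sums of 93945 to 100535 in *Ogg1*-/- livers, against 92792 to 103331 in WT livers. The dimmest of these markers still averaged 6.55 (endothelial) and 6.52 (stellate) in a group, above the median probe set. Of 10 Kupffer cell and macrophage markers, 2 were higher and 2 lower, of 10 lymphocyte and granulocyte markers 1 was higher and 1 lower, and of 5 cholangiocyte markers none was called. Of 8 reference genes 1 (*Hprt*, 0.50) was higher and 1 (*Tbp*, -0.47) lower. On chow no gene of these lists was called between genotypes. In whole liver, fewer cells of a type and less RNA per cell cannot be told apart, and the part of cell composition or of the axis in the *Parp2* result was not tested.

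*Parp1*, the main ADP-ribose polymerase of the strand-break response, had lower means in *Ogg1*-/- livers but was not called. On the HFD it was at 6.92, 7.16 and 7.21 in *Ogg1*-/- livers, against 7.19, 7.31 and 7.46 in WT livers. The ranges overlapped narrowly, and the difference was -0.20 (interval -0.40 to 0.0026; adjusted p = 0.17 by limma). On chow it was at 6.57, 7.26 and 7.32 in *Ogg1*-/- livers, against 7.32, 7.41 and 7.50 in WT livers. Here too the groups met only at their ends, with a difference of -0.26 (interval -0.46 to -0.06; adjusted p = 0.18 by limma). Without replicate 1 of *Ogg1*-/- on chow, the chow difference was -0.14, and the spread used for the HFD comparison became smaller, so that the HFD difference of -0.20 was called (adjusted p = 0.015 by limma). Besides leaving out arrays, it was called in 3 of 12 alternatives, among them the fit of the 12 HFD arrays and the methods' t-test. With the axis score as a covariate, the HFD difference was 0.04 and not called (adjusted p = 0.77 by limma), in a fit that cannot cleanly separate the axis from genotype.

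*Lig3* and *Xrcc1*, whose proteins form the complex that seals the nick of the short-patch route, had means that lay in opposite directions. On the HFD, *Lig3* was at 6.63, 6.85 and 7.07 in *Ogg1*-/- livers, against 7.002, 7.08 and 7.31 in WT livers. The groups overlapped only slightly, and the difference was -0.28 (interval -0.48 to -0.07), just short of the threshold at an adjusted p of 0.054 by limma. *Xrcc1* was at 7.23, 7.29 and 7.50 in *Ogg1*-/- livers on the HFD, against 6.99, 7.12 and 7.20 in WT livers. Every *Ogg1*-/- liver was above every WT liver, by 0.22 on average (interval 0.05 to 0.39), with an adjusted p of 0.066 by limma. On chow neither was called, *Lig3* with a difference of -0.17 (interval -0.38 to 0.03) and *Xrcc1* with 0.07 (interval -0.10 to 0.24). Without replicate 1 of *Ogg1*-/- on chow, both passed on the HFD, with adjusted p-values of 0.014 for *Lig3* and 0.02 for *Xrcc1* by limma. Besides leaving out arrays, *Lig3* was called on the HFD in 7 of 12 alternatives and *Xrcc1* in 6. Both were called in the fit of the 12 HFD arrays and in the methods' t-test. With the axis score as a covariate, their HFD differences were -0.02 and 0.02, in a fit that cannot cleanly separate the axis from genotype.

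Of the endonuclease genes, *Apex2* was called and *Apex1* was not, and the 2 were not tested against each other. *Apex2* was at 7.85, 7.96 and 8.0015 in *Ogg1*-/- livers on the HFD, against 7.42, 7.71 and 8.01 in WT livers. The WT livers were spread widely and the highest of them reached the top of the *Ogg1*-/- range. The difference was 0.25 ± 0.08 (SE; interval 0.08 to 0.41; adjusted p = 0.035 by limma). On chow the signal was 7.71, 7.85 and 7.92 in *Ogg1*-/- livers, against 7.37, 7.57 and 7.63 in WT livers. Here the genotypes did not overlap and the difference, 0.28 (interval 0.12 to 0.45), was of similar size but was not called (adjusted p = 0.11 by limma). The interaction was -0.04 (interval -0.27 to 0.20). *Apex2* was the only member whose groups did not overlap on chow, where 1.06% of all probe sets had no overlap. The HFD call on *Apex2* was lost without *Ogg1*-/- HFD replicate 1, 2, 4 or 6 or WT HFD replicate 4, 5 or 6, with differences of 0.19 to 0.25 and adjusted p-values of 0.051 to 0.1 by limma. It was also lost in a fit of the 12 HFD arrays alone (adjusted p = 0.078 by limma), in the methods' t-test with Benjamini-Hochberg adjustment (adjusted p = 0.095) and with the axis score as a covariate (0.24, adjusted p = 0.18 by limma).

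*Apex1*, the endonuclease that carries most of the incision, was at 7.9999, 8.23 and 8.34 in *Ogg1*-/- livers on the HFD, against 8.02, 8.23 and 8.33 in WT livers. The ranges coincided, and the difference was -0.01 (interval -0.17 to 0.16; adjusted p = 0.97 by limma). On chow it was at 8.08, 8.27 and 8.51 in *Ogg1*-/- livers, against 7.96, 8.19 and 8.34 in WT livers, which overlapped widely. The chow difference was 0.14 (interval -0.02 to 0.31; adjusted p = 0.34 by limma).

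The gap-filling, flap-cutting and long-patch sealing genes were not called in any comparison. *Polb* was at 7.30, 7.65 and 7.83 in *Ogg1*-/- livers on the HFD, against 7.28, 7.79 and 7.97 in WT livers, a difference of -0.12 (interval -0.44 to 0.20). On chow, *Polb* was at 6.76, 7.80 and 7.998 in *Ogg1*-/- livers, against 7.73, 7.81 and 7.91 in WT livers. Its wide range on chow came from replicate 1 of *Ogg1*-/-, and the chow difference of -0.17 (interval -0.49 to 0.16) was 0.01 without that liver. *Lig1* was at 6.17, 6.41 and 6.75 in *Ogg1*-/- livers on the HFD, against 6.11, 6.28 and 6.45 in WT livers, with a difference of 0.12 (interval -0.08 to 0.33). Its chow difference was 0.09 (interval -0.12 to 0.29). *Fen1* was at 5.34, 5.70 and 5.81 in *Ogg1*-/- livers on the HFD, against 5.50, 5.58 and 5.81 in WT livers, with a difference of 0.03 (interval -0.17 to 0.24). On chow the *Fen1* difference was 0.00 (interval -0.20 to 0.21). The *Fen1* probe set was dimmer than the median of the array, so a difference in it would be harder to see.

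*Nudt1* was called between diets, in *Ogg1*-/- livers, and not between genotypes. In *Ogg1*-/- livers it was at 7.47, 7.61 and 7.81 on the HFD, against 6.85, 7.14 and 7.59 on chow. The HFD livers lay above all chow livers except replicate 1, which reached into their range. The difference was 0.45 ± 0.10 (SE; interval 0.25 to 0.66), a 1.37-fold rise with an adjusted p of 0.0082 by limma. In WT livers it was at 7.09, 7.34 and 7.68 on the HFD, against 6.98, 7.05 and 7.21 on chow, which overlapped. The WT difference was 0.29 (interval 0.08 to 0.49) and did not pass (adjusted p = 0.2 by limma). The rise was not shown to differ between genotypes, as the interaction was 0.17 (interval -0.13 to 0.46; adjusted p = 0.85 by limma). Between genotypes on the HFD the difference was 0.26 (interval 0.05 to 0.47; adjusted p = 0.069 by limma), and on chow it was 0.09 (interval -0.11 to 0.30). The HFD difference between genotypes was called in 3 of 12 alternatives and in 2 of the 24 fits that left out 1 array. Without replicate 1 of *Ogg1*-/- on chow, the rise in *Ogg1*-/- livers was 0.54 (adjusted p = 0.00015 by limma), and it kept its call without any other single array. In the methods' t-test, with Benjamini-Hochberg adjustment, it did not pass (adjusted p = 0.072).

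Markers of proliferation moved in the same comparison as *Nudt1*. Of 14 measured, 5 were higher on the HFD than on chow in *Ogg1*-/- livers and 0 lower (*Mcm2*, *Mcm5*, *Rrm2*, *Birc5* and *Aurkb*), with sums of 1275 to 1846 on the HFD, against 1135 to 1299 on chow. Of all probe sets, 4.58% were called as higher there. In WT livers 1 was higher and 0 lower, with sums of 1237 to 1706 on the HFD, against 1165 to 1232 on chow. There, 0.532% of all probe sets were called as higher. Called or not, 12 of the 14 differences were positive in WT livers (median 0.20) and 14 in *Ogg1*-/- livers (median 0.34). The interaction was called for 0 of the 14. *Birc5*, which encodes a mitotic inhibitor of apoptosis and is among the cell cycle markers, rose by 0.49 in *Ogg1*-/- livers on the HFD. The part of dividing cells in the *Nudt1* result was not tested.

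In the remaining comparisons few or no members were called. On chow, 0 of 10 differed between *Ogg1*-/- and WT livers by limma, while 3 (*Apex2*, *Parp1* and *Parp2*) had an unadjusted p under 0.05, as did 18% of all probe sets, and the methods' t-test called 0. Of all probe sets 0.478% were called on chow. The genotype by diet interaction was called for 0 of 10 members and for 0.00281% of probe sets, with 0 members and 6.88% of probe sets at an unadjusted p under 0.05. It was not run by the t-test. The HFD against chow in WT livers gave 0 of 10, with 1 (*Nudt1*) and 13.4% of all probe sets at an unadjusted p under 0.05, 0 by the t-test and 0.925% of all probe sets called. The HFD against chow in *Ogg1*-/- livers gave 1 of 10, *Nudt1*, which was higher, with 9.53% of probe sets called and 4.58% called as higher. At an unadjusted p under 0.05 there were 2 members (*Nudt1* and *Lig3*) and 25.3% of probe sets. *Lig3* fell short there, with a difference of -0.30 (interval -0.51 to -0.09; adjusted p = 0.058 by limma). Without replicate 1 of *Ogg1*-/- on chow, 3 members were called in this last comparison, as *Lig3* (-0.39, adjusted p = 0.0017 by limma) and *Parp2* (-0.37, adjusted p = 0.01 by limma) were then lower on the HFD, and 25.4% of all probe sets were called. No member had diet groups without overlap, in WT (2.25% of all probe sets) or in *Ogg1*-/- livers (2.4%).

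**Figure D2:**
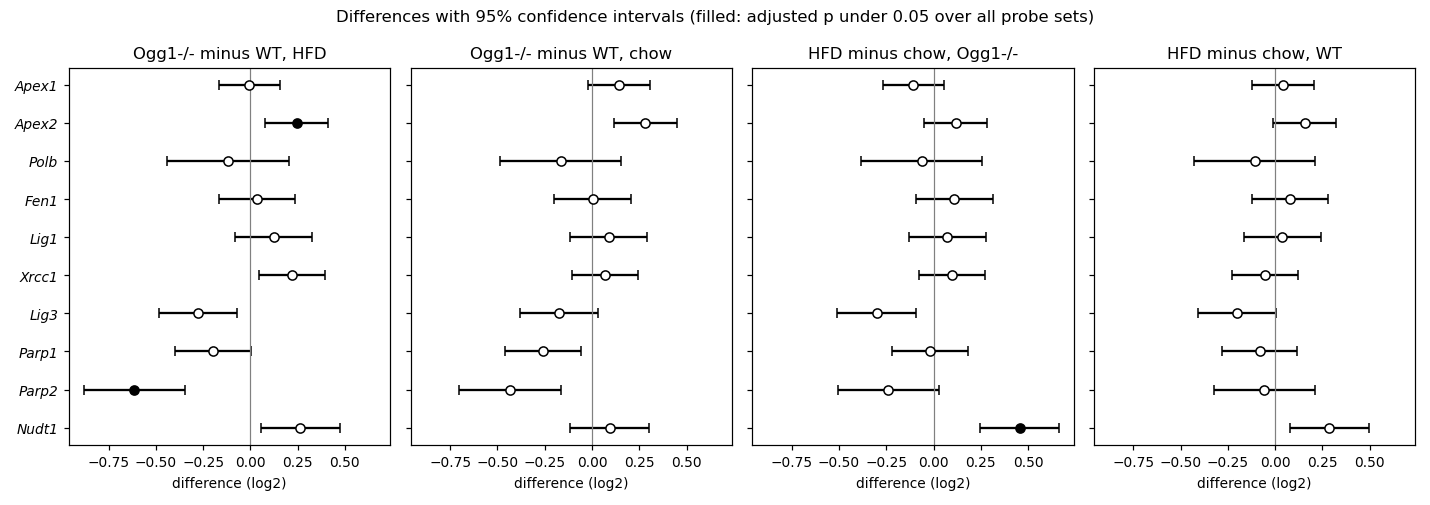
Differences in log2 signal (horizontal axis) of the 10 members in 4 comparisons of 6 against 6 livers, with bars for the 95% confidence interval from the limma fit. Filled points passed an adjusted p of 0.05, and these are *Parp2* at -0.61 and *Apex2* at 0.25 between genotypes on the HFD and *Nudt1* at 0.45 between diets in *Ogg1*-/- livers.

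After the mean of each group was removed, the members varied from liver to liver in 2 sets. *Polb*, *Lig3*, *Parp1* and *Parp2* varied together over the 24 livers, with Pearson correlations of 0.63 to 0.76 in all 6 pairs. *Apex1*, *Xrcc1*, *Lig1* and *Nudt1* had correlations of 0.09 to 0.56 among themselves, and each of the 16 correlations between the sets was negative, at -0.87 to -0.16. The strongest was that of *Xrcc1* with *Lig3* (-0.87, Spearman's rho -0.81). These are descriptions of livers whose values were normalised together, with no test, and the sets were formed after the values were seen. Replicate 1 of *Ogg1*-/- on chow carried part of the pattern. Without it the correlations were 0.31 to 0.59 within the first set, -0.03 to 0.46 within the second and -0.81 to 0.09 between them, while that of *Xrcc1* with *Lig3* was -0.81.

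The sets lined up with the axis of variation of the chow livers, to which all probe sets contributed. Deviations along it correlated at -0.92 with *Lig3*, -0.91 with *Parp1*, -0.80 with *Parp2* and -0.79 with *Polb*. They correlated at 0.89 with *Xrcc1*, 0.57 with *Apex1*, 0.55 with *Nudt1* and 0.52 with *Lig1*. *Fen1* (-0.24) and *Apex2* (0.04) stood outside both sets. Without replicate 1 of *Ogg1*-/- on chow the values were -0.89 for *Lig3*, -0.78 for *Parp1*, -0.63 for *Parp2* and -0.56 for *Polb*. In the second set they were 0.83 for *Xrcc1*, 0.48 for *Apex1*, 0.45 for *Lig1* and 0.26 for *Nudt1*, so that of *Nudt1* rested largely on that liver. *Apex2* was called on the HFD with a deviation that hardly followed the axis, whereas *Parp2* followed it. What the axis stands for was not tested.

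**Figure D3:**
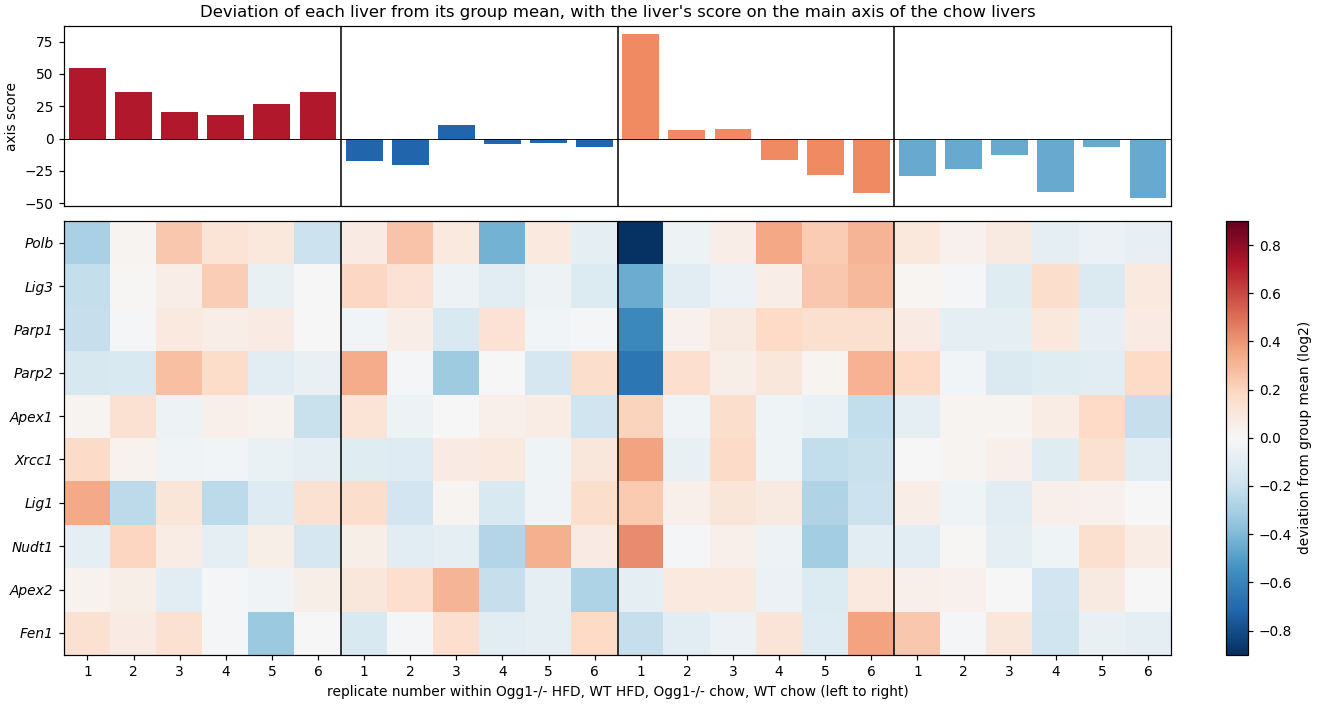
Deviation of each member's log2 signal from its group mean (colour) in each of the 24 livers (columns, by replicate number within group), below the score of the same liver on the main axis of the chow livers (bars, in units of the principal component). Replicate 1 of *Ogg1*-/- on chow, with a score of 80.9, is low for *Polb*, *Lig3*, *Parp1* and *Parp2* and high for *Xrcc1* and *Nudt1*, and the scores of all 6 *Ogg1*-/- livers on the HFD are above those of the WT livers on the HFD.

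The genes most like each called member, by the correlation of deviations from the group means over 24 livers among 19937 other genes, are given as a description. For *Parp2* they were *Cnot10* (0.91), *Copb1* (0.90) and *Zfp277* (0.90). For *Apex2* they were *Gba2* (0.84), *Gpr75* (0.77) and *Prex1* (0.76).

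The steps on either side of the members were read from lists of pathway genes. Between genotypes on the HFD, 10.3% of all probe sets were called as higher and 9.55% as lower, and 12.1% had no overlap. The counts of each list are to be set against these shares, and the genes named are those that were called. Among DNA glycosylases, which start the pathway, 3 of 10 measured genes were higher and 1 lower in *Ogg1*-/- livers on the HFD, the lower one being *Ogg1*. *Neil1*, which removes oxidised pyrimidines, was at 7.30, 7.47 and 7.60 in *Ogg1*-/- livers, against 6.73, 7.05 and 7.18 in WT livers, without overlap. Its difference was 0.44 ± 0.09 (SE; adjusted p = 0.0033 by limma). *Ung*, the uracil glycosylase, was higher by 0.41 (adjusted p = 0.023 by limma) without overlap, and *Nthl1*, another glycosylase of oxidised pyrimidines, by 0.35 (adjusted p = 0.0064 by limma) with overlap. On chow only *Ogg1* was called in this list. The median difference of the list was 0.10 on the HFD, against 0.02 over all probe sets.

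Of 9 measured genes for end processing and ADP-ribose turnover, 1 was lower and 0 higher on the HFD, where 9.55% of all probe sets were called as lower. The lower gene was *Parg*, which encodes the hydrolase that removes the poly(ADP-ribose) made by PARP1 and PARP2. *Parg* was at 6.19, 6.55 and 6.63 in *Ogg1*-/- livers, against 6.75, 7.11 and 7.33 in WT livers. The groups did not overlap, as for 12.1% of all probe sets. The difference was -0.59 ± 0.18 (SE; adjusted p = 0.022 by limma), and on chow it was -0.30 (interval -0.66 to 0.07; adjusted p = 0.38 by limma). The median of this list was -0.06 on the HFD.

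Among 14 genes for replicative polymerases, the sliding clamp and its loader, 1 was higher and 1 lower on the HFD. For this and the next lists, 10.3% of all probe sets were called as higher on the HFD, 9.55% as lower, and 12.1% had no overlap. *Rfc4*, a subunit of the clamp loader, was at 6.58, 7.13 and 7.39 in *Ogg1*-/- livers, against 7.48, 7.74 and 8.03 in WT livers, without overlap, with a difference of -0.70 ± 0.20 (SE; adjusted p = 0.016 by limma). *Pole4*, a small subunit of polymerase epsilon, was higher by 0.31 (adjusted p = 0.0067 by limma). Of 6 other repair polymerases and mitochondrial repair genes, *Poll*, the gap-filling relative of polymerase beta, was higher by 0.41 (adjusted p = 0.025 by limma) and *Primpol* was lower by 0.46 on the log2 scale in *Ogg1*-/- livers (difference -0.46, adjusted p = 0.044 by limma). Of 5 genes of nucleotide pool sanitation besides *Nudt1*, *Dut* was higher and 0 were lower. *Dut*, whose product keeps uracil out of DNA by hydrolysing dUTP, was at 8.09, 8.40 and 8.54 in *Ogg1*-/- livers on the HFD, against 7.66, 7.79 and 7.99 in WT livers. The groups did not overlap, and the difference was 0.51 ± 0.09 (SE; adjusted p = 0.0016 by limma). Of 14 proliferation markers, 1 (*Birc5*, 0.47, adjusted p = 0.0032 by limma) was higher between genotypes on the HFD and 0 were lower. On chow none of the genes in this paragraph was called between genotypes, the *Dut* difference being 0.12 (interval -0.07 to 0.30).

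**Figure D4:**
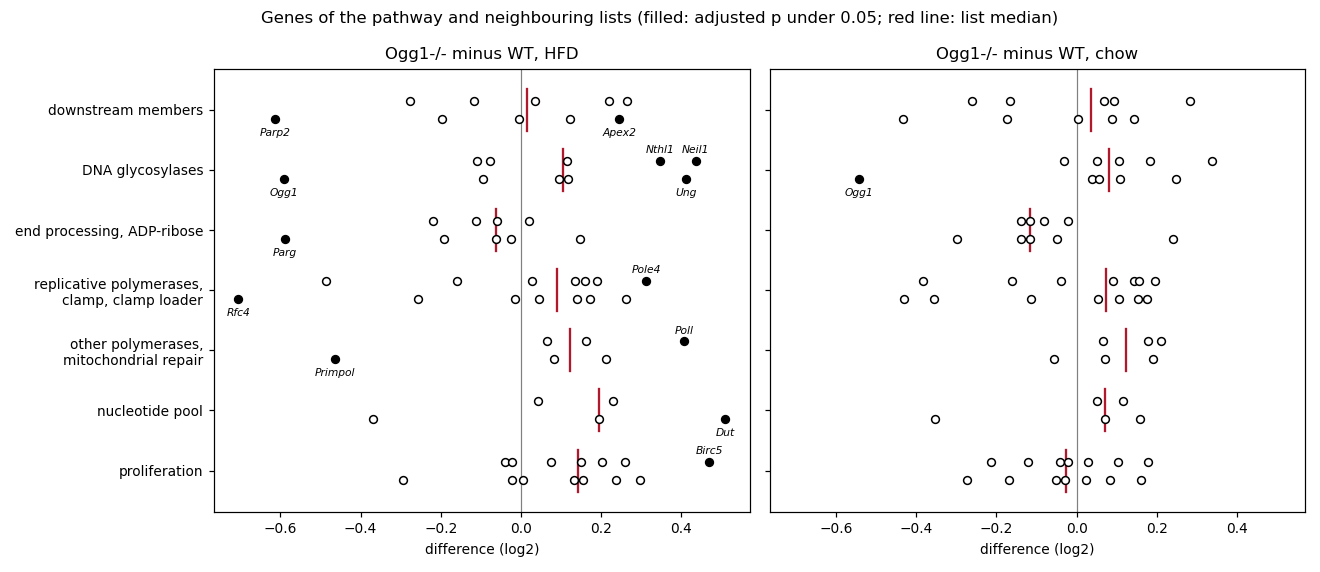
Differences in log2 signal between *Ogg1*-/- and WT livers (horizontal axes; HFD left, chow right) of the 10 members and of 6 lists of related genes, 1 point for each gene and a red line for the list median. Filled and named points passed an adjusted p of 0.05 over all probe sets, of which there are 13 on the HFD, in both directions, and 1 on chow, *Ogg1*.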

How the data were processed

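Labelled RNA from 24 livers was hybridised to Affymetrix Mouse Gene ST arrays. What the authors deposited is a log2 signal for every probe set, made from the scans with RMA according to the submitters' processing notes, whereas the methods describe GC-RMA. They run from 1.81 to 14.8, and array medians lie between 5.90 and 5.97. Correlations between pairs of arrays were 0.952 to 0.993. RMA sets all arrays to a common distribution, so a shift shared by most genes would be removed. No depth applies to arrays, and precision is limited by the 6 livers in each group. Labels number the livers as biological replicates, so p-values measure the spread between mice.

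Symbols came from the platform annotation: 21789 probe sets carried 1 symbol, 1621 several and 12146 were not named here. A single limma model (limma 3.58.1, R 4.3.3, lmFit, contrasts.fit, eBayes) with a mean for each of the 4 groups was used for the 35556 probe sets, with Benjamini-Hochberg adjustment over all probe sets and a threshold of 0.05, with a fold of 1.5 counted beside it. Intervals are 95% confidence intervals of the fit. The script was tested on simulated data. The members, the lists and the named genes were chosen with earlier results of these data known. Named were all members, *Ogg1*, up to 4 genes of each pathway list that passed between genotypes by smallest p, and the 3 genes most like each member that passed between genotypes. The other proliferation genes of the diet comparison were named after their values were seen. The 13 lists besides the members held 129 measured genes together with the members, out of 139. They cover DNA glycosylases, end processing, replicative and other polymerases, nucleotide pool, proliferation, 6 liver cell types and reference genes. The axis is the first principal component of deviations from group means in the 12 chow arrays and carried 40.2% of their variation. Alternatives were array centring, quantile normalization, a filter on dim probe sets, array weights, another prior, fits of the 12 arrays compared, the methods' t-test, gene-level values, the axis as covariate, replicate number as a block, and leaving out each array. Replicate numbers are not stated to mark litters or batches, so the main fit did not pair livers by them. Correlations of same-numbered deviations were -0.27 to 0.43 (median -0.03, 36 pairs). They were not compared with those of differently numbered livers, so they cannot show that the numbers carry no pairing. Figures were drawn with matplotlib 3.10.9.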

Additional observations from a re-analysis of the deposited data

Results flagged for a closer look

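In 40 groups of 6 livers (10 members in 4 groups), 6 values stood apart, as the gap to the nearest liver took a larger part of the range of the group than Dixon's 95% critical value allows. Chance alone places about 1 in 20 groups there. In *Ogg1*-/- livers on chow, replicate 1 was the lowest for *Polb* at 6.76 (next liver 7.61), for *Parp1* at 6.57 (next 7.19) and for *Parp2* at 5.78 (next 6.46), so 3 of the 6 values came from 1 liver. The same liver had the highest axis score, 80.9. In *Ogg1*-/- livers on the HFD, *Parp1* was low in replicate 1 at 6.92 (next 7.12), the liver with the highest axis score of that group, 54.8, and *Fen1* was low in replicate 5 at 5.34 (next 5.66). In WT livers on chow, *Apex2* was low in replicate 4 at 7.37 (next 7.54).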

How the results depend on the processing

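No difference that was called changed its direction under any of the 12 alternatives or when any of the 24 arrays was left out. Between genotypes on the HFD, 2 members and 19.8% of all probe sets were called. The count was 3 with array median centring (20.6% of all probe sets), with reference gene centring (17.8%) and at gene level (26.1% or 26.2%). It was 4 with quantile normalization (19.8%), with the 12 arrays compared (23.7%) and with the methods' t-test (22.8%). With dim probe sets left out it was 5 of 9 members, as *Fen1* dropped out, and 43.0% of the probe sets kept were called. Array weights gave 6 (26.4%). The axis score as a covariate gave 0 (2.71%), in a fit that cannot cleanly separate the axis from genotype on the HFD. Leaving out single arrays gave 1 to 6. The 6 came without replicate 1 of *Ogg1*-/- on chow, when 25.9% of all probe sets were called. The 1 came without *Ogg1*-/- HFD replicate 1, 2 or 6 or WT HFD replicate 4 or 6, when 13.7% to 15.7% of all probe sets were called. On chow the count of 0 became 1 only without *Ogg1*-/- chow replicate 6 (2.93% of all probe sets), the range over arrays being 0 to 1. Between diets in *Ogg1*-/- livers the count was 1, with 9.53% of all probe sets called. It became 2 with reference gene centring (8.95%), with dim probe sets left out (24.4%) and with 1 probe set or the mean of probe sets per gene (14.5%). Array weights gave 3 (23.0%) and the methods' t-test gave 0 (1.62%). Leaving out single arrays gave 1 to 3, with 3 without *Ogg1*-/- chow replicate 1 (25.4%) and 2 without *Ogg1*-/- HFD replicate 4 (9.13%). The cause of these changes was not tested. For the diet comparison in WT livers and the interaction the count stayed at 0 throughout. With the replicate number as a block (replicate block), the counts were 2 on the HFD, 0 on chow, 1 between diets in *Ogg1*-/- livers and 0 in the others, so no call changed. Over all probe sets, the calls ranged from 963 (axis score as covariate) to 9400 (array weights) on the HFD, against 7045, from 33 (methods' t-test) to 1041 (without *Ogg1*-/- chow replicate 6) on chow, against 170, and from 576 (methods' t-test) to 9035 (without *Ogg1*-/- chow replicate 1) between diets in *Ogg1*-/- livers, against 3388. Between diets in WT livers they ranged from 155 (without WT chow replicate 4) to 839 (array weights), against 329, and for the interaction from 0 (dim probe sets left out) to 539 (without *Ogg1*-/- chow replicate 1), against 1.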
